A study of Mus musculus with 94 samples.

Results

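Polycomb group proteins were followed here through the transcripts of 29 genes, in mouse embryonic stem cells differentiated as embryoid bodies while cohesin (RAD21) or its release factor WAPL was degraded. The genes were picked by symbol from a fixed list: 4 core and 5 accessory genes of Polycomb repressive complex 2 (PRC2), the 2 catalytic genes of Polycomb repressive complex 1 (PRC1), 9 genes of canonical PRC1 and 9 of variant PRC1. All 29 had a row in each of the 3 poly(A) RNA tables, which hold 24421, 14997 and 15363 genes, and 28 had one among the 22529 genes of the nascent RNA table, where Phf1 was not analysed here. Every one of them passed the filter on low counts wherever it had a row, Cbx8 at WAPL day 7 through its dTAG-13 libraries alone. Of the 94 samples of the series, 18 were used.

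All libraries came from Tsix-stop ES cells of a CAST/Ei x 129/Sv/Jae hybrid, which carry RAD21 or WAPL fused to an FKBP degron and had been kept on irradiated fibroblast feeders before differentiation. The small molecule dTAG-13, at 500 nM, sends the fused protein to the proteasome, and control cells received the same volume of DMSO. WAPL-FKBP cells were treated from day 4 to day 7 (clone H7, replicates 1 and 2, and clone H2, counted as replicate 3, in both arms) or from day 7 to day 10 (clone H7 only, 2 libraries in each arm). RAD21-FKBP cells, clones C4 and G9, had 8 h of treatment that ended at day 10 for poly(A) RNA and at day 7 for PRO-seq, which reads nascent RNA from polymerases in the act of transcription, in 1 library per clone and treatment. Each clone is a single line, the controls carry the degron too, and no label says that replicates of H7 came from separate cultures. The p-values thus speak for these libraries only, and the spread behind them is partly pooled over genes.

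PRC2 methylates a lysine of histone H3 through EZH1 or EZH2, which work only when bound to EED and SUZ12, and its accessory subunits help to place it on CpG-rich DNA. PRC1 ubiquitinates histone H2A through RING1 or RNF2 (RING1B). Canonical PRC1 adds a CBX protein, which reads the PRC2 mark, a PHC protein, which polymerises, and PCGF2 or BMI1. Variant PRC1 carries RYBP or YAF2 in place of CBX and PHC, with another PCGF protein, and one form reaches unmethylated CpG islands through KDM2B. In differentiating stem cells the usual exchange is from the ES-cell subunits CBX7 and EZH2 towards CBX2 and CBX8, and towards EZH1.

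Library totals ranged from 8413212 to 35388461 counts, so that 3 counts, taken as the floor for a level, correspond to 0.0835 to 0.374 CPM, the counts scaled to library size. Levels are given below as CPM with TMM factors and are compared between libraries only, never between genes, because the tables give no gene lengths. The degron acts on protein, so transcript counts do not check the degradation: Wapl stood at 244 to 842 CPM with DMSO and 229 to 922 CPM with dTAG-13 at day 7, with both H2 libraries lowest, and Rad21 at 201 to 251 and 216 to 284 CPM in poly(A) RNA. The 6 pluripotency genes checked (Pou5f1, Nanog, Esrrb, Klf4, Tdgf1, Zfp42) were detected in every set and summed to 1720 to 2000 CPM in WAPL DMSO libraries at day 7. In these bulk libraries fewer cells of a type and less RNA per cell cannot be told apart.

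**Figure D1:**
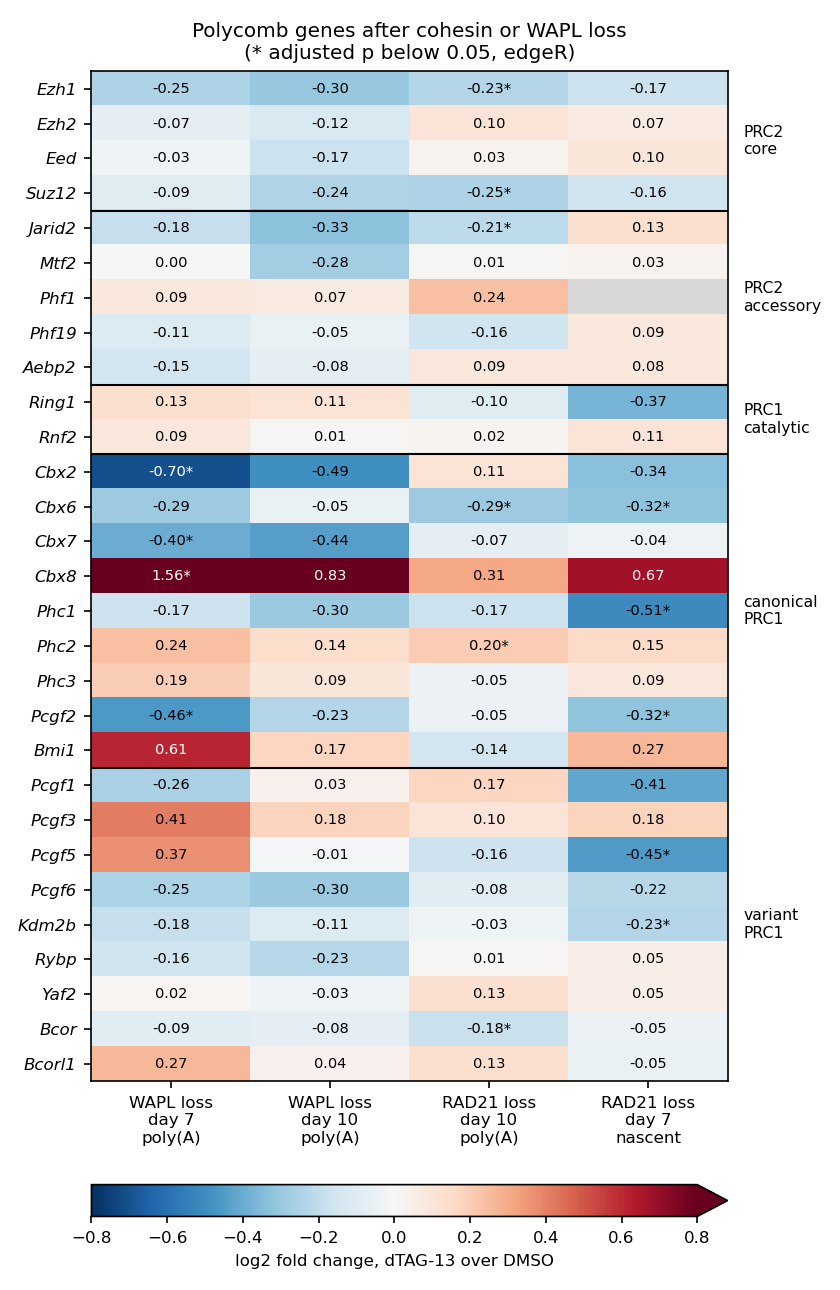
Log2 fold change (dTAG-13 over DMSO, colour and printed value) of each Polycomb gene in the 4 comparisons, with genes in rows grouped by complex and comparisons in columns; asterisks mark an adjusted p below 0.05 and the grey cell is Phf1. The colour scale ends at 0.8, below the 1.56 of Cbx8 at day 7. The asterisks for WAPL loss at day 7 lie within canonical PRC1, and the WAPL day 10 column has none, in fits without a replicate block.

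In the main fits, which have no replicate block, most Polycomb transcripts passed the test in no treatment comparison, as the map of fold changes shows. After WAPL loss to day 7, 4 of 29 members passed the test (edgeR quasi-likelihood, Benjamini-Hochberg adjusted p below 0.05), 1 higher and 3 lower, against 15.2% of the 14544 genes tested (9.46% higher and 5.73% lower). All 4 were canonical PRC1 genes, 4 of 9, while 0 of 9 PRC2 genes, 0 of 2 catalytic genes and 0 of 9 variant genes passed. The higher one, Cbx8, entered the test only through its dTAG-13 libraries. With the replicate number as a block, 6 of 9 canonical and 2 of 9 variant genes passed, against 27.5% of all genes. After WAPL loss to day 10 none of the 29 passed, but neither did any of the 14110 genes tested (0%). Of these genes, 926 (6.56%) had an unadjusted p below 0.05, among them 1 member. With the replicate number as a block, 12 members passed at day 10, beside 36.4% of all genes. RAD21 loss for 8 h gave 6 of 29 in poly(A) RNA at day 10 (1 higher, 5 lower) against 18.7% of 14470 genes (9.83% higher, 8.89% lower), and 5 of 28 in nascent RNA at day 7, all lower, against 10.7% of 16498 genes (5.96% higher, 4.73% lower). The members' shares were 13.8% and 20.7% in the WAPL day 7 and RAD21 poly(A) sets, near the background, and 17.9% in nascent RNA, where 3 of the 5 were canonical PRC1 genes. The member medians lay near those of all genes: -0.09, -0.08, -0.03 and -0.01 on the log2 scale in that order, beside -0.01, -0.01, 0.01 and 0.00 over all genes. Groups of libraries did not overlap for 7, 10, 8 and 10 members, beside 31%, 34.1%, 30.9% and 30.4% of all genes tested.

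The promoters of the canonical PRC1 genes that passed in any treatment comparison, and that have a single entry in the RefSeq promoter table, are printed here to show how unlike their sequences are. Each run covers 250 bases before and 50 after the RefSeq start (build GRCm38.p6), 5′ to 3′ along the gene, with every CpG dinucleotide in capitals.
Cbx8, chr11:119040864-119041163, minus strand: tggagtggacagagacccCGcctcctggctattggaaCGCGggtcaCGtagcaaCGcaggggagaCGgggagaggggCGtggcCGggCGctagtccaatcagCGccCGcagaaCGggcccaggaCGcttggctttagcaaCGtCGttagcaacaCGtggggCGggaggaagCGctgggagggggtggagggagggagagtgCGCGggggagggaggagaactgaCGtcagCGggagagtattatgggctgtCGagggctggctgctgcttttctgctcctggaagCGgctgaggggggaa
Cbx7, chr15:79932597-79932896, minus strand: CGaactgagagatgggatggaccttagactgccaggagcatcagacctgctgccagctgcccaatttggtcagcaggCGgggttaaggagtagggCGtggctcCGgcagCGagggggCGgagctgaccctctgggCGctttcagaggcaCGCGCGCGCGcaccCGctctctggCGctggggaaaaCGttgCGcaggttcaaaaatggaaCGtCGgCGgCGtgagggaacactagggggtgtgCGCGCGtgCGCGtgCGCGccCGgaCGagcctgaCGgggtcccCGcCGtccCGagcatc
Pcgf2, chr11:97699599-97699898, minus strand: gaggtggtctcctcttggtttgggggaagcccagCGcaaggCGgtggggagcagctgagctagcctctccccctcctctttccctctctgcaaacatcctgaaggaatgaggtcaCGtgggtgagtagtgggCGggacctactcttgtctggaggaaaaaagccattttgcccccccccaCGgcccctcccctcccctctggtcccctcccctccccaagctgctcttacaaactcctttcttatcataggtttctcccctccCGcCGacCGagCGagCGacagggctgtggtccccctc
Cbx6, chr15:79834284-79834583, minus strand: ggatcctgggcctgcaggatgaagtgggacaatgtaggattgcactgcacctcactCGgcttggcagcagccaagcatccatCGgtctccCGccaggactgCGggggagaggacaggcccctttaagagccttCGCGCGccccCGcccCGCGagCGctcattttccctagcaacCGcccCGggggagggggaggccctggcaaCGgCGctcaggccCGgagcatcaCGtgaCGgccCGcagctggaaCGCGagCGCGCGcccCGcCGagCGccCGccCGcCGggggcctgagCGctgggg
Phc1, chr6:122340178-122340477, minus strand: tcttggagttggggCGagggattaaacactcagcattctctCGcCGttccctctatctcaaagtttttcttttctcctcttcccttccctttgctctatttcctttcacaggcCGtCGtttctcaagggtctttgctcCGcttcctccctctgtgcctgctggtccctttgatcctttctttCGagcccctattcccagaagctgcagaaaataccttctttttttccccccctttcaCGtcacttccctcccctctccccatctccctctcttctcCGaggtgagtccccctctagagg
Cbx7, Cbx6 and Cbx8 hold 33, 31 and 24 CpGs in this window, whereas Pcgf2 holds 10 and Phc1 holds 9. The 37 promoters of the 25 members in that table had a median of 23 CpGs and 64.3% G+C, beside 7 and 52.7% in all 32841 promoters. A GC box (GGGCGG, either strand) occurred in 25 of the 37, or 67.6%, against 35.7% of all promoters. The letters of an ETS site, CCGGAAG, were found on either strand in 1 of them, a start of Phc2 (2.7% against 8.86%), and TATAAA in 1, a start of Jarid2 (2.7% against 13.6%). In the RefSeq gene order Cbx2 and Cbx8 are direct neighbours, and Cbx6 and Cbx7 have 1 protein-coding gene between them.

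After WAPL loss from day 4 to day 7 Cbx2, Cbx7 and Pcgf2 were lower. Cbx8 was called higher, at counts near the floor. Cbx2 stood at 65.5, 52.9 and 69.1 CPM in DMSO replicates 1, 2 and 3 and at 40.2, 34.9 and 40.1 CPM with dTAG-13. Every treated library lay below every control, and the log2 fold change was -0.70 (SE 0.12, adjusted p = 0.00942, edgeR). Cbx7, the main CBX reader of undifferentiated ES cells, was at 245, 247 and 233 CPM with DMSO and 197, 173 and 180 CPM with dTAG-13. The groups again did not overlap, and the log2 fold change was -0.40 (SE 0.09, adjusted p = 0.0259, edgeR). Pcgf2 (MEL18), which takes the same place as BMI1 in canonical PRC1, was at 166, 174 and 174 CPM against 138, 116 and 120 CPM, a log2 fold change of -0.46 (SE 0.10, adjusted p = 0.0213, edgeR).

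Cbx8, a reader tied to differentiation, went the other way at counts close to the floor. It had 12, 4 and 2 counts in the DMSO libraries (0.334, 0.189 and 0.249 CPM) and 12, 21 and 11 counts with dTAG-13 (0.928, 0.732 and 0.848 CPM). The third DMSO value is below that library's floor of 0.374 CPM. All 3 treated libraries were above all 3 controls, with a log2 fold change of 1.56 (SE 0.39, adjusted p = 0.0326, edgeR). Only the dTAG-13 libraries met the low-count filter, so Cbx8 was tested because its treated group was high. Its p is therefore no support of its own for a rise. Cbx6, another reader, was at 103, 99.7 and 107.7 CPM against 88.9, 80.3 and 84.8 CPM and missed the threshold with a log2 difference of -0.29 (SE 0.09, adjusted p = 0.069, edgeR). The neighbours Cbx2 and Cbx8 thus had treatment differences of opposite sign, that of Cbx8 with the limit just given, while Cbx6 and Cbx7 had the same sign.

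These 4 calls rest on few libraries. Leaving out DMSO replicate 1 left 0 members past the threshold (6.73% of all genes), as did leaving out the DMSO (2.26%) or dTAG-13 (2.27%) library of H2. Without DMSO replicate 2 there was 1, Cbx2 (6.78%), without dTAG-13 replicate 2 there were 2, Cbx2 and Pcgf2 (15.9%), and without dTAG-13 replicate 1 there were 12 (29.5%). The member counts thus moved with those of all genes. In these fits the log2 fold change ran from -0.77 to -0.62 for Cbx2, from -0.45 to -0.34 for Cbx7, from -0.55 to -0.40 for Pcgf2 and from 1.35 to 1.95 for Cbx8. Same-numbered libraries deviated together, and with the replicate number as a block 8 members passed, beside 27.5% of all genes: the same 4, Cbx6 at -0.29, and Bmi1, Pcgf3 and Pcgf5 at 0.56, 0.38 and 0.37 on the log2 scale.

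Marker genes of other cell types moved in the same libraries, beside 15.2% of all genes called. Of 5 trophoblast markers 3 rose, and the list summed to 361 to 590 CPM with DMSO and 1040 to 1350 CPM with dTAG-13. Of 6 fibroblast and feeder markers 4 rose and 1 fell (70.1 to 77.1 against 94.2 to 120 CPM), of 6 mesoderm and cardiac markers 3 rose and 1 fell (180 to 232 against 230 to 376 CPM), and of 4 neural markers tested 1 fell (310 to 382 against 187 to 249 CPM). Of 2 endoderm markers tested 1 rose and 1 fell, and the list summed to 6.31, 4.38 and 28.2 CPM with DMSO and 4.33, 3.28 and 11.9 CPM with dTAG-13. None of 4 endothelial and blood markers tested passed (18.6 to 37.2 against 24.4 to 38.2 CPM), and none of 6 pluripotency markers did (1720 to 2000 against 1410 to 1810 CPM). No marker in these lists was at 0 in all day 7 libraries. Their part in the CBX and PCGF differences was not tested.

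**Figure D2:**
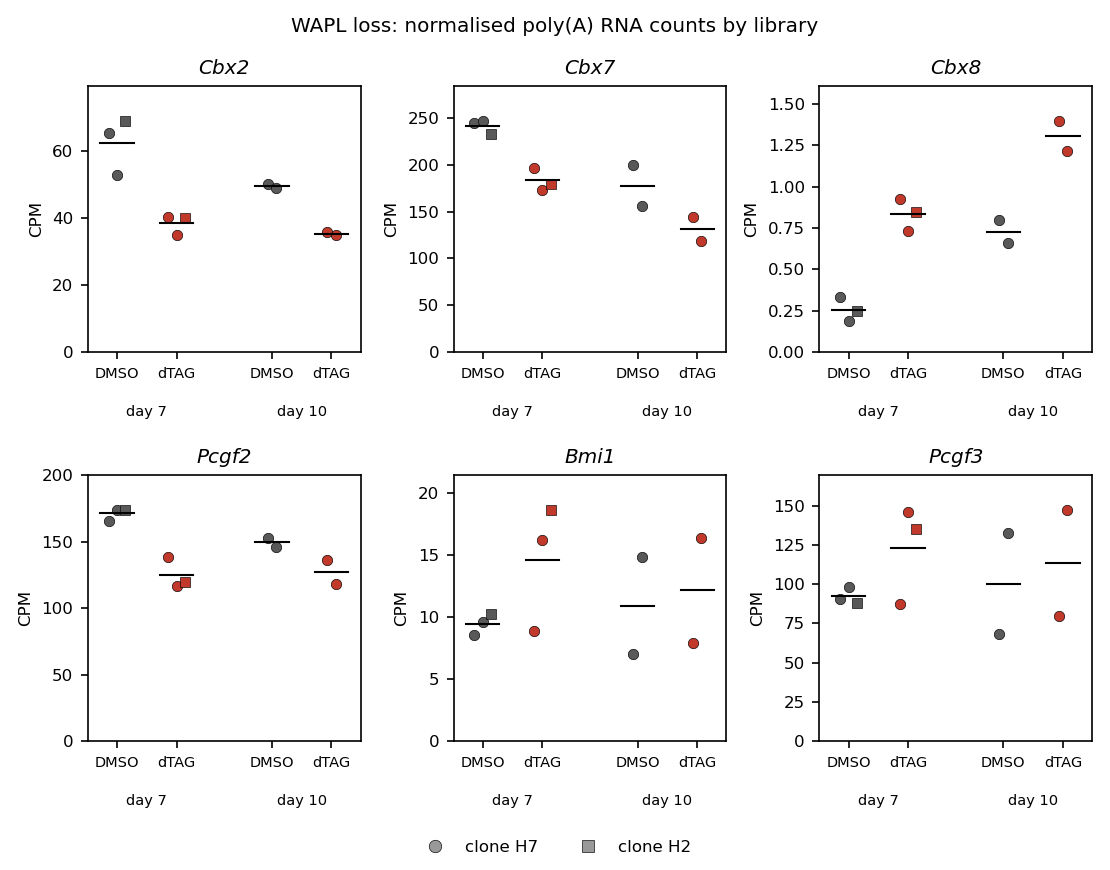
Normalised poly(A) counts (CPM, linear axis from 0) of 6 PRC1 genes in each WAPL-FKBP library by treatment and day; points are libraries, squares clone H2 and bars group means. Cbx2, Cbx7 and Pcgf2 lie lower and Cbx8 higher with dTAG-13 on both days, whereas Bmi1 and Pcgf3 spread widely within groups.

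With treatment from day 7 to day 10, in clone H7 alone, the same 4 genes had differences of the same sign. None passed in the fit without a replicate block, which gave the values below. With that block 12 members passed, Pcgf3 higher and the others lower, beside 36.4% of all genes. No label says that the replicate numbers pair these libraries. Cbx2 was at 50.1 and 48.9 CPM with DMSO and 35.7 and 34.9 CPM with dTAG-13, a log2 difference of -0.49 (SE 0.15, adjusted p = 0.701, edgeR). Cbx7 was at 199.7 and 156 against 144 and 118 CPM (-0.44, SE 0.20), and Pcgf2 at 153 and 146 against 136 and 118 CPM (-0.23, SE 0.16). Cbx8 was at 0.797 and 0.657 against 1.40 and 1.21 CPM (0.83, SE 0.36). For each of these 4 the treated libraries did not overlap the controls. With 2 libraries in each arm and no replicate block, a simulation on these data recovered 9% of genes changed 2-fold and 85% of those changed 4-fold. Marker sums also differed there, with DMSO against dTAG-13 at 1560 to 1730 against 2170 to 2580 CPM for trophoblast. Mesoderm and cardiac markers had 282 to 297 against 341 to 437 CPM. Sums were lower for neural (267 to 293 against 198 to 204 CPM), endoderm, and endothelial and blood markers. Pluripotency and fibroblast sums overlapped. Their part was not tested.

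A test of whether the WAPL effect differed between the windows passed for 0 of 29 members and for 0% of 14326 genes, with 423 genes at an unadjusted p below 0.05. The difference of effects (late minus early) was 0.23 for Cbx2 (SE 0.18), -0.03 for Cbx7 (SE 0.19), 0.24 for Pcgf2 (SE 0.16) and -0.73 for Cbx8 (SE 0.48) on the log2 scale. These intervals do not show that the effects were alike.

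Between the DMSO controls of day 7 and day 10, 2 of 29 members passed against 6% of genes tested. Cbx6 was lower at day 10 (72.8 and 75.6 CPM, a log2 fold change of -0.51, SE 0.11, adjusted p = 0.0295, edgeR). Phc2, one of the polymerising PHC genes, was higher at day 10, at 127 and 128 CPM against 78.01, 73.9 and 86.6 CPM at day 7 (0.70, SE 0.13, adjusted p = 0.0203, edgeR). Cbx8 missed the threshold at 1.36 (SE 0.38, adjusted p = 0.0735), as did Cbx7 at -0.51 (SE 0.14, adjusted p = 0.0814) and Phc1 at -0.48 (SE 0.16, adjusted p = 0.114, all edgeR). The day 7 controls are shared with the WAPL comparison at day 7, whose values for Cbx8 and Cbx7 were 1.56 and -0.40, so the pairs of values are not independent. The days come from separately deposited tables of raw counts, so table and day cannot be told apart. With H7 libraries alone, or without any of the 3 DMSO libraries of day 7 or the H2 dTAG-13 library, 0 members passed. Those fits called 1.17% to 2.51% of all genes, so the member counts of 0 say little about the members. Over all 15 alternative fits, some without a day 10 library, Cbx6 missed the threshold in 7 and Phc2 in 6. Their log2 fold changes ran from -0.537 to -0.459 and from 0.675 to 0.762.

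Bmi1 and the variant subunit genes Pcgf3 and Pcgf5 were the other PCGF genes with positive day 7 differences, and none passed without the replicate block. Bmi1, the alternative to PCGF2 in canonical PRC1, was at 8.596, 9.57 and 10.2 CPM with DMSO and at 8.89, 16.2 and 18.7 CPM with dTAG-13. Pcgf3 was at 90.6, 98.1 and 87.9 against 87.2, 146 and 135 CPM. In both genes dTAG-13 replicate 1 sat with the controls, and the other 2 treated libraries were above them. Pcgf5 was at 20.3, 21.3 and 15.6 against 25.7, 29.2 and 18.96 CPM, higher in each of 3 pairs but with overlapping groups. The log2 differences were 0.61 (SE 0.23), 0.41 (SE 0.18) and 0.37 (SE 0.12), with adjusted p = 0.106, 0.161 and 0.0744 (edgeR).

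At day 10 Bmi1 and Pcgf3 differed between replicate numbers more than between treatments. Bmi1 was at 7.01 and 14.8 CPM in DMSO replicates 1 and 2 and at 7.90 and 16.4 CPM in the dTAG-13 ones. Pcgf3 was at 68.0 and 133 against 79.4 and 147 CPM, Phc3 at 14.4 and 33.1 against 18.3 and 32.2 CPM, and Bcorl1, a scaffold of variant PRC1, at 19.6 and 48.4 against 24.6 and 44.9 CPM. In all 4 genes replicate 2 was the higher library of either treatment. Across the members 26 of 29 had the same sign of replicate 2 over 1 in both treatments, and 5 exceeded 0.5 on the log2 scale in both, the fifth being Rnf2. Over all 14110 genes 84.8% had the same sign and 17.3% were beyond 0.5 in both, close to the members' 89.7% and 17.2%.

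**Figure D3:**
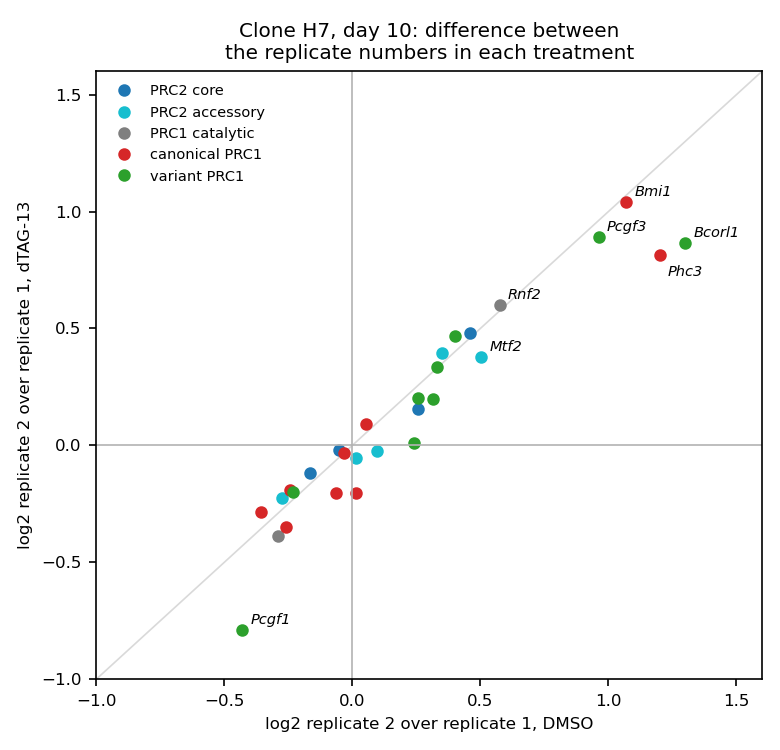
Log2 ratio of replicate 2 to replicate 1 at day 10 in clone H7, with DMSO on the horizontal and dTAG-13 on the vertical axis; each point is a Polycomb gene, coloured by complex, and the grey diagonal marks equal ratios. Bcorl1, Phc3, Bmi1, Pcgf3 and Rnf2 lie above 0.5 on both axes.

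In the main fits, without a replicate block, PRC2 transcripts did not pass the test after WAPL loss at either day. At day 10 no gene of any kind passed in that fit, and 8 of the 9 PRC2 differences were negative (median -0.172, beside -0.0135 over all genes). With the replicate block PRC2 was represented among the members called lower at day 10, so it is not shown to be unaffected. Their day 7 differences ran from -0.25 (Ezh1) to 0.09 (Phf1) on the log2 scale and their day 10 differences from -0.33 (Jarid2) to 0.07 (Phf1). Ezh2, the catalytic subunit of dividing cells, was at 214, 218 and 183 CPM with DMSO and 224, 202 and 163 CPM with dTAG-13 at day 7, with overlapping groups. Ezh1, its counterpart of differentiated cells, was at 41.3, 41.1 and 48.2 against 40.2, 33.7 and 35.8 CPM. The catalytic PRC1 genes did not pass either: Ring1 was at 12.8, 12.3 and 15.6 against 16.8, 12.8 and 14.7 CPM, and Rnf2 at 83.9, 113 and 106 against 76.4, 126 and 120 CPM.

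Short RAD21 loss gave small poly(A) differences at day 10 in 6 genes, spread over the complexes (3 of 9 PRC2, 2 of 9 canonical and 1 of 9 variant genes). Suz12, the PRC2 scaffold, was at 142 and 110 CPM with DMSO in clones C4 and G9 and at 121 and 91.6 CPM with dTAG-13, a log2 fold change of -0.25 (SE 0.06, adjusted p = 2.38e-04, edgeR). It fell in each clone, but the groups overlapped because the clones differ. Ezh1 was at 38.3 and 34.8 against 33.2 and 28.9 CPM (-0.23, SE 0.07, adjusted p = 0.0124, edgeR). Jarid2, an accessory subunit that helps to recruit PRC2, was at 416 and 351 against 391.5 and 279 CPM (-0.21, SE 0.07, adjusted p = 0.0294, edgeR). It no longer passed with RLE scaling. Without dTAG-13 replicate 2 its log2 difference was 0.0308, in a fit without a clone term that set treated C4 against controls of both clones. Jarid2 differed by -0.36 between G9 and C4, so that value mixes clone with treatment. Within the clones Jarid2 was lower with dTAG-13, by -0.0869 in C4 and -0.333 in G9. Ezh2 was at 248 and 223 against 261 and 244 CPM and did not pass (0.10, SE 0.07).

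Among the PRC1 genes in that poly(A) set, Cbx6 fell from 55.3 and 51.7 CPM to 43.8 and 44.0 CPM (-0.29, SE 0.06, adjusted p = 9.1e-05, edgeR). Phc2 rose from 183 and 198 CPM to 211 and 228 CPM (0.20, SE 0.06, adjusted p = 0.0082, edgeR). The groups did not overlap for either gene. Bcor, the scaffold of the PCGF1 complex, went from 179 and 151 CPM to 159 and 133 CPM (-0.18, SE 0.06, adjusted p = 0.019, edgeR), lower in both clones with overlapping groups. Cbx2 and Pcgf2 had differences of 0.11 (SE 0.06) and -0.05 (SE 0.06) and did not pass.

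In nascent RNA at day 7 the genes past the threshold were all PRC1 genes, 3 of 9 canonical and 2 of 9 variant. Beside 10.7% of all genes, 0 calls among 8 PRC2 genes do not set PRC2 apart. Phc1, the PHC gene of ES cells, was at 648 and 423 CPM with DMSO in C4 and G9 and at 488 and 276 CPM with dTAG-13, a log2 fold change of -0.51 (SE 0.06, adjusted p = 6.07e-07, edgeR). Both clones were lower, and the C4 treated library still lay above the G9 control. Cbx6 was at 96.0 and 81.3 against 79.7 and 62.6 CPM (-0.32, SE 0.08, adjusted p = 0.0108, edgeR). Pcgf2 was at 69.4 and 72.2 against 58.5 and 54.7 CPM (-0.32, SE 0.09, adjusted p = 0.0178, edgeR), with no overlap of its groups.

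Of the variant genes, Pcgf5 was at 43.6 and 56.6 against 38.4 and 33.4 CPM (-0.45, SE 0.11, adjusted p = 0.00689, edgeR). Kdm2b, the CpG-binding subunit, was at 369.7 and 404 against 329 and 328 CPM (-0.23, SE 0.06, adjusted p = 0.0139, edgeR). Neither gene's groups overlapped. The 8 PRC2 genes present had nascent differences from -0.17 (Ezh1) to 0.13 (Jarid2) and none passed. Cbx6 was the gene past the threshold in both RAD21 sets, 1 of the 6 poly(A) and 1 of the 5 nascent calls. The share of all genes past it in both sets was not counted. The sets differ in day as well as in the RNA measured, so a difference between them cannot be assigned to either.

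**Figure D4:**
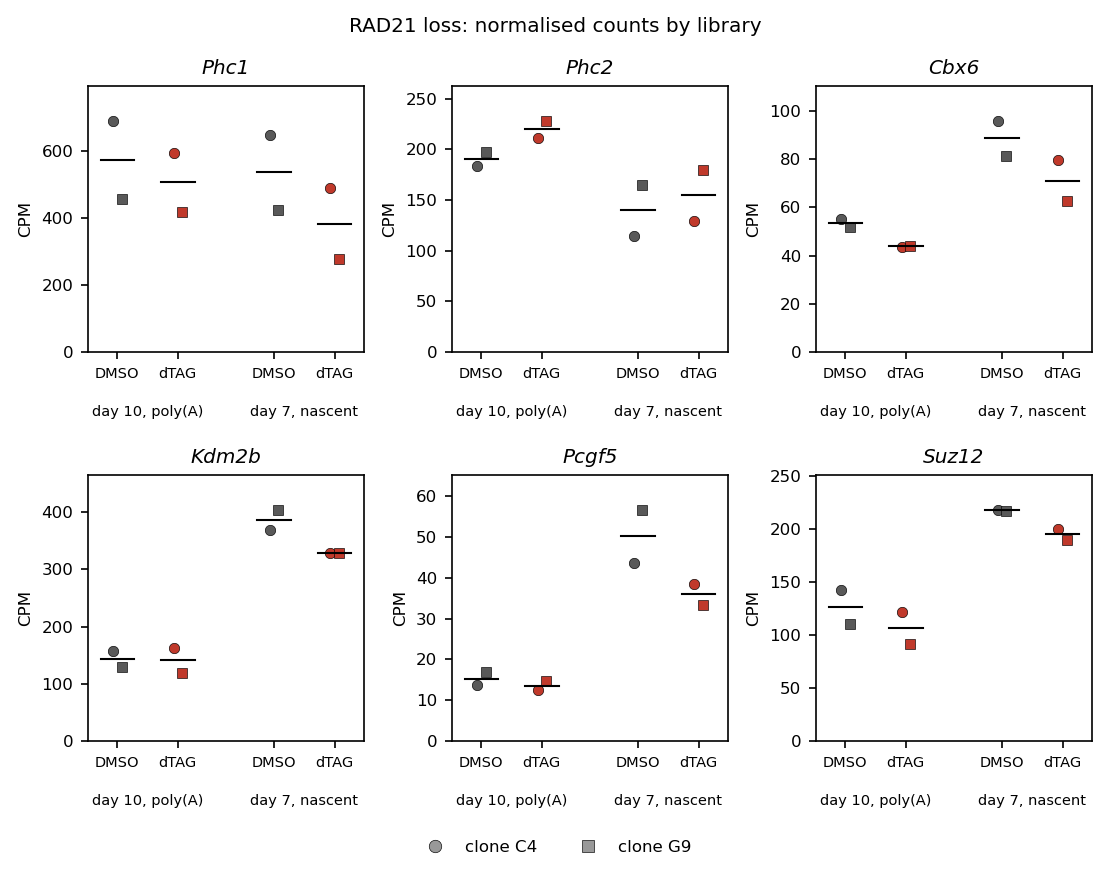
Normalised counts (CPM, linear axis from 0) of 6 Polycomb genes in each RAD21-FKBP library, poly(A) RNA of day 10 on the left and nascent RNA of day 7 on the right of each panel; circles are clone C4, squares clone G9 and bars group means. Cbx6 is lower with dTAG-13 in both sets, and Phc1 differs between the clones as well as between treatments.

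The RAD21 calls depended on the model for 2 clones with 1 residual degree of freedom. In poly(A) RNA the spread behind each SE was in effect pooled over genes, so a gene's own 2 clones hardly entered it. Suz12, Mtf2 and Aebp2 each had an SE of 0.057 there. Jarid2 passed with log2 differences of -0.0869 in C4 and -0.333 in G9. DESeq2 with the same design called 0 of the 29 in poly(A) RNA (472 of all genes, 3.26%) and 1 of the 28, Phc1, in nascent RNA (507 of all genes, 3.07%), and without a clone term or with any library left out no member passed in either set. Those fits called next to no genes at all, 0.00691% to 0.645% in poly(A) RNA and 0% in nascent RNA, so the member counts of 0 say nothing about the members. Cell type markers moved in the same libraries. For pluripotency 5 of 6 fell in poly(A) RNA (836 to 1130 against 722 to 926 CPM in sum) and 5 of 6 in nascent RNA (497 to 601 against 347 to 475 CPM), with none at 0. In poly(A) RNA 2 of 6 mesoderm and cardiac markers fell (459 to 473 against 358 to 372 CPM), as did 2 of 5 endothelial and blood (74.6 to 95.2 against 54.0 to 61.8 CPM), 2 of 4 endoderm (99.6 to 183 against 83.8 to 138 CPM) and 1 of 4 neural markers (246 to 256 against 229 to 261 CPM). Of 6 fibroblast and feeder markers 3 fell and 1 rose (227 to 236 against 225 to 249 CPM), and of 5 trophoblast markers 2 fell and 2 rose (1410 to 1760 against 1550 to 2350 CPM). In nascent RNA 1 marker fell in each of the mesoderm and cardiac (37.9 to 178 against 22.7 to 71.1 CPM), endoderm, endothelial and blood, and trophoblast lists, 1 neural marker rose and 1 fell, and Hbb-bh1, a blood marker, was at 0. The part of these markers in the Polycomb differences was not tested.

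More members differed between clones G9 and C4 than between treatments. In poly(A) RNA 17 of 29 members differed between the clones, 3 higher and 14 lower in G9, against 43.2% of all genes, and in nascent RNA 17 of 28, 4 higher and 13 lower, against 34.9%. All 5 PRC2 accessory genes passed in poly(A) RNA, with Phf19 lowest at -0.60 (SE 0.10) and Phf1 higher at 0.34 (SE 0.09), and the 4 measured in nascent RNA were all lower. Rybp, the subunit that marks variant PRC1, was lower in G9 in poly(A) RNA (-0.56, SE 0.06), as was Phc1, at -0.56 (SE 0.08) in poly(A) and -0.72 (SE 0.06) in nascent RNA. Bcorl1 was higher in G9 in both, at 0.31 (SE 0.07) and 0.44 (SE 0.10). Pcgf3 changed sign between the sets, at -0.39 (SE 0.06) in poly(A) and 0.28 (SE 0.08) in nascent RNA. DESeq2 called 9 members in each set, against 11.8% of all genes in poly(A) and 17.2% in nascent RNA. Of the genes named here it did not call Phf1 and Bcorl1 in poly(A) RNA or Pcgf3 in nascent RNA, nor, among the accessory genes, Mtf2 in poly(A) and Phf19 and Aebp2 in nascent RNA. Between WAPL clones H2 and H7, 1 of 29 passed against 3.91% of genes: Bcorl1, at 43.0 and 53.1 CPM in H2 and 27.99 to 36.5 CPM in H7 (0.59, SE 0.11, adjusted p = 0.027, edgeR).

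Ratios of counts within a library do not depend on how libraries are scaled, and gene length cancels in their change with treatment. Ratios of 7 pairs of related genes, a choice made with the values known, were followed over the 9 DMSO and dTAG-13 pairs of libraries. Phc2 over Phc1 was higher with dTAG-13 in 9 of 9 pairs, by 0.33 to 0.74 on the log2 scale. At day 7 of WAPL treatment the ratio went from 0.0798, 0.0718 and 0.0820 to 0.101, 0.0962 and 0.112, and in RAD21 nascent RNA from 0.178 and 0.389 to 0.266 and 0.651. Its level also differed between sets and clones, from 0.0718 to 0.436 among poly(A) controls. Within each WAPL set the treated ratios lay above all controls, at day 10 with 0.221 and 0.245 against 0.156 and 0.188. In both RAD21 sets, where the clones differed, treated and control ratios overlapped.

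Ezh1 over Ezh2 was lower in 9 of 9 pairs, by 0.10 to 0.39 on the log2 scale, and Bmi1 over Pcgf2 was higher in 7 of 9, lower only in both clones of the RAD21 poly(A) set. At day 7 of WAPL treatment Bmi1 over Pcgf2 went from 0.0519, 0.0550 and 0.0587 to 0.0643, 0.139 and 0.156. The other ratios were mixed: Yaf2 over Rybp, the alternative subunits of variant PRC1, was higher in 8 of 9 pairs, Bcorl1 over Bcor in 7, Ring1 over Rnf2 in 4 and Cbx2 over Cbx7 in 2. No p is given for these ratios, since pairs within a set share a clone or a table. Of all single genes, 59.4% to 77.3% kept one sign in every pair of a set. Ratios of other gene pairs were not counted, so 9 of 9 is not shown to be particular to these genes.

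**Figure D5:**
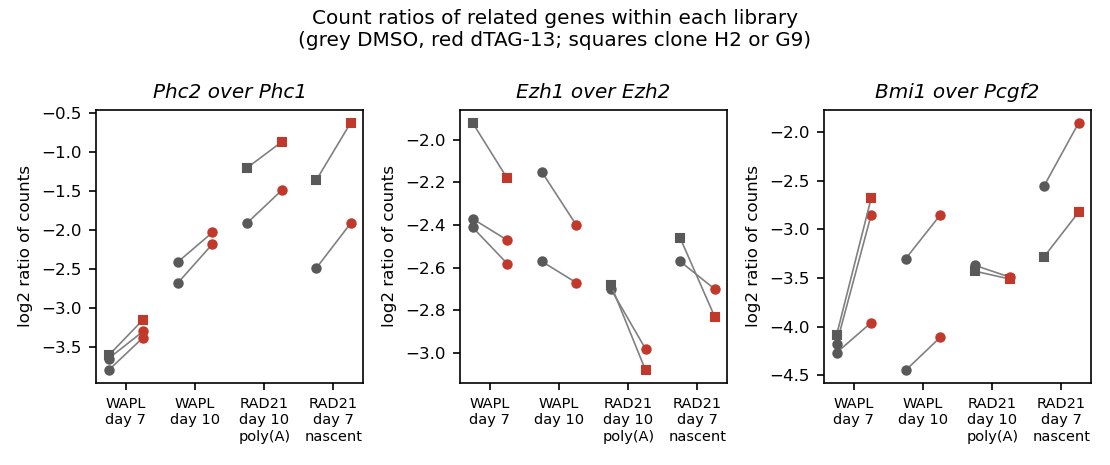
Log2 ratio of counts of 2 related genes within each library, DMSO in grey and dTAG-13 in red joined by a line for each pair, for the 4 sets; squares are clones H2 and G9. Lines for Phc2 over Phc1 all go up, by 0.33 to 0.74, and those for Ezh1 over Ezh2 all go down.

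Other genes of the Polycomb system were counted beside the share of all genes called, 15.2% to day 7 and 0% to day 10 after WAPL loss, 18.7% in RAD21 poly(A) and 10.7% in RAD21 nascent RNA. Of 6 further PRC2 cofactors 1 passed in a treatment comparison: Ezhip, an inhibitor of EZH2, rose after WAPL loss to day 7 (5.12, 4.15 and 3.62 against 11.8, 6.49 and 10.1 CPM, a log2 fold change of 1.08, SE 0.26, adjusted p = 0.0287, edgeR), and none passed after RAD21 loss. Of 20 further PRC1 cofactors 1 passed after WAPL loss to day 7: Auts2, which turns a variant PRC1 towards activation, fell (72.0, 63.5 and 77.04 against 38.3, 38.6 and 48.9 CPM, -0.77, SE 0.10, adjusted p = 0.00387, edgeR). After RAD21 loss Scmh1 and Fbrs rose and Scml2 fell in poly(A) RNA, by 0.24, 0.17 and -0.56 on the log2 scale, and none of 19 passed in nascent RNA. Of 6 enzymes that remove Polycomb marks or their cofactors, 0 passed after WAPL loss, Kdm6b rose in RAD21 poly(A) RNA (0.24, SE 0.06), and Kdm6a and Asxl3 rose in nascent RNA (0.22, SE 0.06, and 0.25, SE 0.08).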

How the data were processed

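Poly(A) RNA-seq was measured in 14 libraries and PRO-seq in 4, grouped by the sample titles. The authors deposited raw counts per gene for RNA and, for PRO-seq, estimated counts in steps of 0.5, rounded here to whole numbers. The submitters' processing notes name TopHat2, Novoalign, Bowtie2, HOMER, DESeq, DESeq2 and the build mm9 among others, with no roles. How reads were counted, and with which strand setting, is not given in the sources used here. The planned levels per length could not be formed without gene lengths.

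The quasi-likelihood F-test of edgeR 4.0.16 (R 4.3.3) was run after TMM scaling and filterByExpr at a count of 10, with p-values adjusted by Benjamini-Hochberg over all genes tested and with clone as a term except in WAPL days 7 to 10. The SE is the log2 fold change divided by the root of F. Residual degrees of freedom were 3 and 2 for WAPL, 1 for each RAD21 set and 5 for the joint WAPL fit. Tested on simulated data with 200 changed genes, the fits recovered 77%, 9%, 91% and 80% of 2-fold changes (WAPL days 4 to 7, days 7 to 10, RAD21 poly(A), RAD21 nascent). False calls were 8.38%, 6.93%, 5.03% and 5.41% of calls. The simulated libraries were independent, at the spread that the same fit had estimated, with no clone or pair differences. These shares therefore check the procedure and do not vouch for the calls in the real libraries.

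Replicates differed beyond sampling noise (chi-square per gene 12.2 to 54.1). Deviations of same-numbered WAPL day 7 libraries from group means correlated with r = 0.518, 0.537 and 0.634, the last pair being clone H2. Between H7 libraries of unlike number r was 0.023 and 0.112. The group means include H2. The numbers were taken to pair the libraries in the alternative fit with a replicate block. The main fit, which gave the SE and adjusted p values printed, had clone and treatment only. The members, gene lists, ratios and tests were chosen with earlier results of these data known. Every member is accounted for; values for each library are given for those past a threshold and for related families, and of the other lists the genes past a threshold, at most 4 per list and comparison. Alternatives were other scalings and filters, DESeq2 1.42.0, voom of limma 3.58.1, other designs, each library left out and, chosen after seeing the data, edgeR's legacy fit. Promoters and gene order came from RefSeq (GRCm38.p6), a build other than that of the counts. Figures were drawn with matplotlib 3.10.9.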

Additional observations from a re-analysis of the deposited data

Results flagged for a closer look

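In 5 members both RAD21 clones differed in one direction in poly(A) RNA at day 10 and in the other direction in nascent RNA at day 7. The differences between the sets were not tested, and each rests on 2 pairs of libraries. Over all genes, 68.3% in poly(A) and 67.3% in nascent RNA had one sign in both clones, beside 22 members in each set. How many of all genes had opposite signs in the sets was not counted, so the 5 are not shown to be unusual. The log2 differences in nascent and poly(A) RNA were -0.34 and 0.11 for Cbx2, 0.27 and -0.14 for Bmi1, 0.13 and -0.21 for Jarid2, -0.41 and 0.17 for Pcgf1, and 0.0921 and -0.05 for Phc3. Of these 10 values, that of Jarid2 in poly(A) RNA passed the test (adjusted p = 0.0294, edgeR). Day and kind of RNA differ together between the sets and cannot be told apart.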

How the results depend on the processing

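For WAPL days 4 to 7, where 4 members passed, scalings, filters, DESeq2, limma-voom, the legacy fit and the fit without a clone term gave 3 to 5. Over all alternative fits that tested it, Cbx8 stayed past the threshold in 7 of 15. Cbx2, Pcgf2 and Cbx7 did so in 12, 11 and 9 of 16. The replicate block gave 8 (27.5% of all genes), clone H7 alone gave 0 (2.39%), and leaving out each library gave 0 to 12 (2.26% to 29.5%). For WAPL days 7 to 10 the count was 0 in every fit other than the one with the replicate block, which gave 12 (Pcgf3 higher and 11 lower, among 5141 genes in all, 36.4%); the libraries there share only a number, with r = 0.785. For RAD21 poly(A) RNA the 6 became 0 with DESeq2 and 0 without a clone term. With each library left out Jarid2 ran from -0.47 to 0.0308, the latter without dTAG-13 replicate 2. RLE scaling lost Jarid2, and library totals exchanged Phc2 for Phc1. For RAD21 nascent RNA the 5 became 1 with DESeq2, 0 without a clone term and 0 to 0 with each library left out. Those leave-one-out fits had no clone term. The difference between WAPL windows had 0 in every fit, with 5 genes past the threshold over all genes under the replicate block. DMSO day 10 against day 7 gave 0 with H7 alone (2.5% of all genes) and 0 to 2 with each day 7 library left out (1.17% to 4.64%). For clones, DESeq2 gave 2 (H2 against H7, 7.22% of all genes) and 9 in each RAD21 set (11.8% poly(A), 17.2% nascent). Apart from Jarid2, no member that passed changed sign in any fit. The Jarid2 change came in a fit that mixed clone with treatment. The cause of these shifts was not tested. With the floor at 3 counts per library, Cbx8 is the member whose level the depth limits most.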
